A study of Mus musculus with 7 samples.

Results

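Genes named for complexes I, II and III of the mitochondrial respiratory chain were described in mouse melanoma cells and mouse endothelial cells. They were all probe sets with exactly 1 gene symbol that begins with Nduf, Sdha, Sdhb, Sdhc, Sdhd or Uqcr, and a gene with several probe sets was represented by the one with the highest mean over all arrays. The rule gave 59 of the 19938 genes measured, from 68 probe sets, and 3 further probe sets that carried several symbols were left out. By role they were 6 core subunits, 28 accessory subunits and 7 assembly factors of complex I, 2 members of the NDUFA4 family, 8 subunits and assembly factors of complex II, and 8 subunits of complex III. Levels are log2 expression values from Affymetrix Mouse Gene 1.0 ST arrays, 1 array per sample, so a difference of 1 is a 2-fold change.

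The single sample of mouse dermal endothelial cells (MDEC) was grown in DMEM with an endothelial growth supplement. The other 6 samples were B16F10, a pigmented mouse melanoma line, and its derivatives, all grown in DMEM with bovine serum and antibiotics. The 4 clones A2 to A5 were PECAM1+, that is positive for the endothelial adhesion receptor PECAM1 (CD31), and clone A1 and the parental B16F10 cells were PECAM1−. Every sample was detached with Accutase before total RNA was isolated. The labels named no mouse strain, no genetic change and no drug treatment. The PECAM1− group joined a clone with a parental population, and cell type, culture medium and array cannot be told apart for MDEC. Whether the samples were grown as separate cultures is not in the labels, and p-values therefore measure sample-to-sample spread that may be technical.

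Complex I takes electrons from NADH and complex II takes them from succinate, and both pass them to ubiquinone in the inner mitochondrial membrane. Complex III then moves the electrons to cytochrome c, and complexes I and III pump protons as they work. A few complex I subunits and 1 complex III subunit are encoded by mitochondrial DNA, while all genes described here are nuclear. Endothelial cells are known to draw much of their ATP from glycolysis, and pigmented melanoma cells of the MITF-driven state are known for active respiration.

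Pecam1 and the melanocyte markers matched the labels of the 7 arrays. Pecam1 stood at 11.72 in MDEC, at 11.07, 11.01, 11.03 and 11.00 in clones A2 to A5, at 5.43 in clone A1 and at 5.27 in parental cells. The other endothelial markers were near their lowest in all B16F10 arrays, PECAM1+ clones included, as shown by Cdh5 (VE-cadherin) at 12.41 in MDEC and at 4.86 to 5.08 in B16F10. The median level of 8 melanocyte markers was 6.06 in MDEC and 11.94 to 12.57 in the B16F10 arrays. Of markers of other cell types, the leukocyte marker Cd68, a lysosomal protein also made outside leukocytes, was at 11.18 in MDEC, at 7.96 to 8.16 in clones A2 to A5, at 10.07 in clone A1 and at 7.52 in parental cells. The other 4 measured leukocyte markers, Ptprc among them at 4.99 in MDEC, lay at most 0.12 from the B16F10 level in MDEC. All 6 fibroblast and mural markers lay higher in the PECAM1+ clones than in clone A1, with a median of 0.51 and 1 past the limma threshold, and their part in the differences described here was not tested. The median of all genes differed little between arrays, at 6.60 in MDEC, 6.65 to 6.69 in the PECAM1+ clones, 6.63 in clone A1 and 6.65 in parental cells. Clone A1 stood apart from the other B16F10 arrays in its cell cycle genes. Ccna2 (cyclin A2) was at 11.48, 11.39, 11.33 and 11.34 in clones A2 to A5, against 6.92 in clone A1 and 11.54 in parental cells. In MDEC the 5 measured cell cycle markers lay within the range of the 6 B16F10 arrays, above clone A1 and below the other 5. Their differences from the B16F10 level were -2.45 to -1.19 with clone A1 in that level and -3.58 to -1.82 without it, an alternative chosen after the data were seen, and Ccna2 was at 8.84 in MDEC. In bulk RNA such as this, fewer cells of a type and less RNA per cell cannot be told apart.

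Most complex I to III genes had a lower level in MDEC than in the melanoma cells. In MDEC 56 of the 59 genes lay below the mean B16F10 level (the mean of the PECAM1+ and PECAM1− group means), where 49.6% of all genes did. The MDEC differences and fold values given below are from that mean level, not from the B16F10 medians printed beside some genes. For 46 of the 59 genes, or 78%, the MDEC level lay below all 6 B16F10 arrays, against 26.3% of all genes. Among genes with a mean level of at least 6, 57.1% lay below the B16F10 mean and 36% below all 6 arrays. The median difference over the 59 genes was -0.59, against 0.00 over all genes. MDEC had 1 array, so these differences carry no test and no replicate check, and the array's own error is not known. Most of the genes are well expressed, and among the 3894 genes with a mean level of at least 9 the share below all 6 arrays was 41.7%, with 30 of 39 complex I to III genes there (76.9%). That background was chosen after the data were seen. The part of the lower cell cycle markers or of the culture medium in these differences was not tested.

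Only 9 of the 59 genes were at least 2-fold lower in MDEC while also lying outside the B16F10 range, and none was 2-fold higher. Of all genes, 6.86% were 2-fold lower by the same rule, 6.4% were 2-fold higher, and 13.3% passed in either direction. Among genes with a mean level of at least 6, which 58 of the 59 have, 11.2% were 2-fold lower. The count of 9 therefore stands much nearer the share of all genes than the count of genes below all arrays does. Many small differences in 1 direction, rather than a few large ones, made up the lower level of the group.

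**Figure D1:**
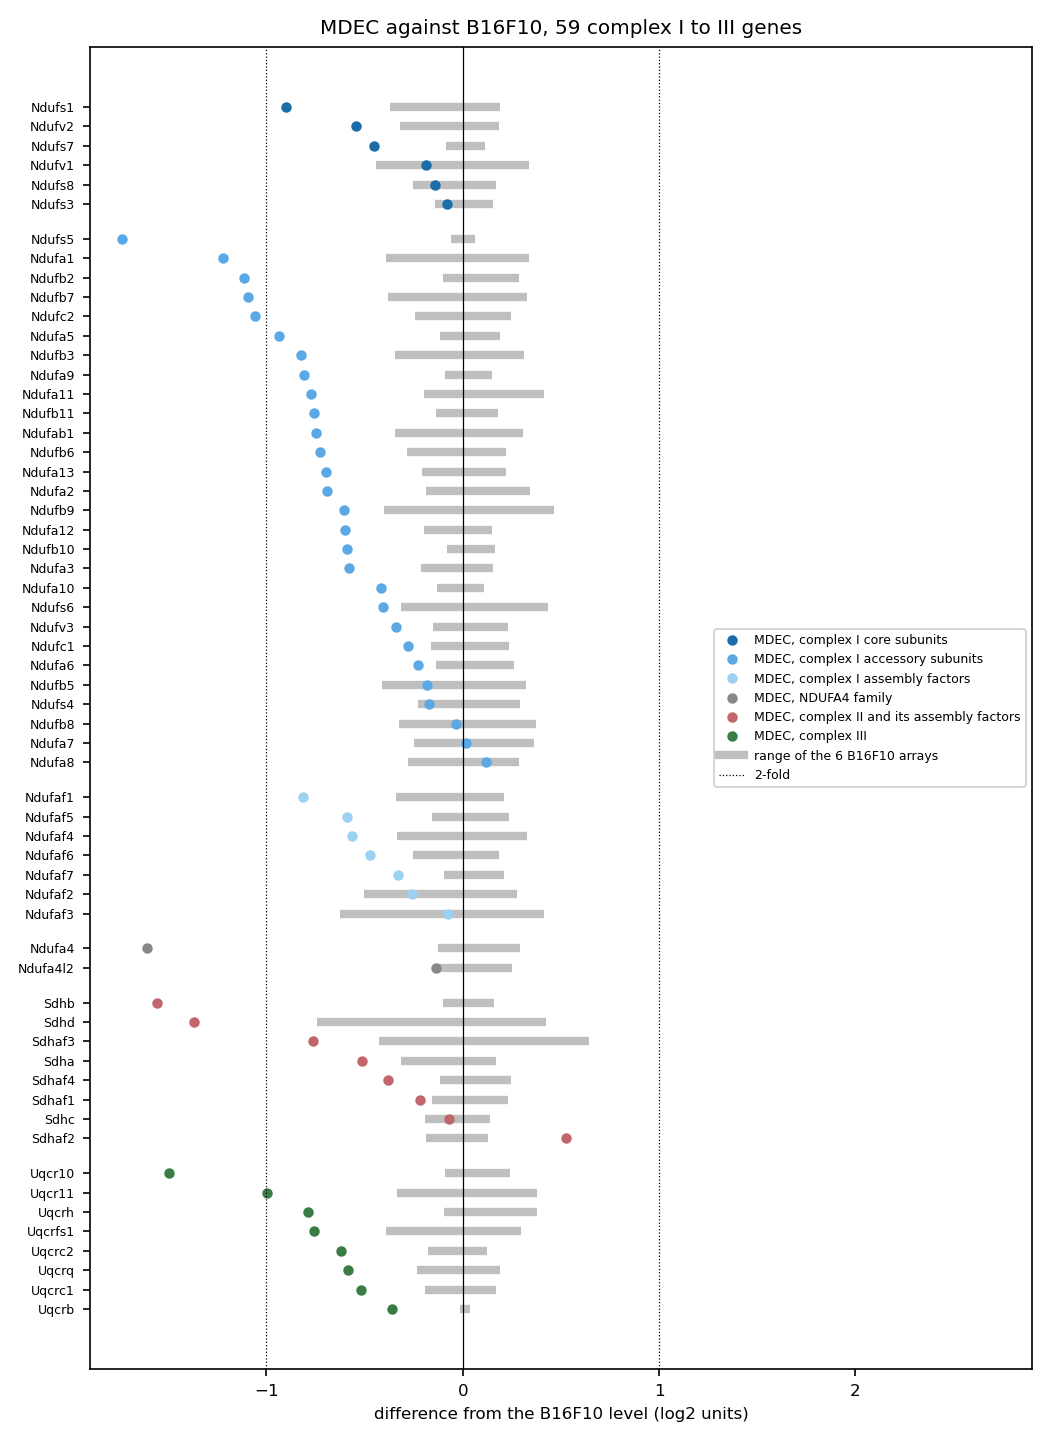
Each point is the MDEC level of 1 of 59 genes minus the mean B16F10 level (horizontal axis, log2 units), coloured by role, and the grey bar is the range of the 6 B16F10 arrays on the same scale. 46 points lie left of their grey bar, 9 lie beyond the dotted 2-fold line on the left and Sdhaf2 alone lies right of its bar.

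The core subunits of complex I, which carry the flavin and the iron-sulfur clusters, differed least. All 6 lay below the B16F10 mean, 3 of them below every B16F10 array, with a median difference of -0.32. Ndufs1, the largest iron-sulfur subunit, was at 8.97 in MDEC, against 10.06, 10.00, 9.81 and 9.96 in clones A2 to A5, 9.50 in clone A1 and 10.06 in parental cells, a difference of -0.90. MDEC lay below every melanoma array for this gene. Ndufv2, an iron-sulfur partner of the NADH-binding subunit, was at 10.22 in MDEC and had a median of 10.87 in B16F10 (10.44 to 10.94), and Ndufs7 was at 11.70 in MDEC and had a median of 12.18 in B16F10 (12.07 to 12.27). Ndufs3, Ndufs8 and Ndufv1 lay within the B16F10 range, and their differences ran only to -0.19.

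Accessory subunits surround the core of complex I and are needed for its assembly and stability. Of the 28 measured, 26 lay below the B16F10 mean and 23 below every B16F10 array, with a median of -0.65, and 5 passed the 2-fold rule. Ndufs5 differed most of all 59 genes. Its level was 6.95 in MDEC, against 8.75, 8.70, 8.73 and 8.72 in clones A2 to A5, 8.67 in clone A1 and 8.63 in parental cells. The B16F10 arrays lay close together, and MDEC was 3.33-fold lower (-1.74). Ndufa1, a small X-linked membrane subunit, was at 6.50 in MDEC, 2.33-fold below the B16F10 mean, with a B16F10 median of 7.77 (7.33 to 8.06). Ndufb2 was at 6.85 in MDEC, 2.17-fold below the B16F10 mean, with a B16F10 median of 7.92 (7.86 to 8.25). Both are subunits of the membrane arm. Ndufb7 was at 8.52 in MDEC, 2.13-fold below the B16F10 mean of 9.61, with a B16F10 median of 9.84 (9.23 to 9.94). Ndufc2 was at 11.18 in MDEC, 2.08-fold below the B16F10 mean, with a B16F10 median of 12.28 (11.99 to 12.48). Just outside the 2-fold rule, Ndufa5 differed by -0.94. At the other end, Ndufa8 at 0.12 and Ndufa7 at 0.02 lay slightly above the B16F10 mean but within its range.

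Assembly factors help to build complex I without staying in it. All 7 lay below the B16F10 mean and 5 of them below every B16F10 array, with a median of -0.47 and none past 2-fold. Ndufaf1 showed the largest difference, with 8.56 in MDEC, against 9.36, 9.38, 9.04 and 9.29 in clones A2 to A5, 9.39 in clone A1 and 9.59 in parental cells (-0.82). Ndufaf5 differed by -0.59, Ndufaf4 by -0.56 and Ndufaf6 by -0.47. Ndufaf2 and Ndufaf3 lay within the B16F10 range.

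The NDUFA4 family shares the Nduf name, but NDUFA4 is now known as a subunit of complex IV. Ndufa4 was at 9.22 in MDEC, against 10.77, 10.88, 10.84 and 11.11 in clones A2 to A5, 10.70 in clone A1 and 10.80 in parental cells. It was 3.05-fold lower (-1.61), and every melanoma array lay above the MDEC level. Its hypoxia-induced relative Ndufa4l2 had the lowest mean level of the 59 genes, 5.65, and its 5.55 in MDEC lay within the 5.53 to 5.94 of the B16F10 arrays.

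The complex II genes spread widest. Sdhb, the iron-sulfur subunit of succinate dehydrogenase, was at 9.61 in MDEC, against 11.25, 11.15, 11.18 and 11.33 in clones A2 to A5, 11.07 in clone A1 and 11.16 in parental cells, and was 2.94-fold lower (-1.56). Sdhd, a membrane anchor that helps to bind ubiquinone, was at 9.56 in MDEC, against 11.22, 11.26, 10.71 and 11.35 in clones A2 to A5, 10.18 in clone A1 and 11.25 in parental cells, and was 2.58-fold lower (-1.37). MDEC lay below all melanoma arrays for both, although clone A1 stood much nearer to it for Sdhd than for Sdhb. Sdha, the flavoprotein that oxidises succinate, differed by -0.51 and also lay below every B16F10 array. Sdhc, the other membrane anchor, differed by only -0.07 and lay within the B16F10 range. The assembly factors were just as uneven. Sdhaf3, which helps to mature the iron-sulfur subunit, was at 7.81 in MDEC and had a median of 8.38 in B16F10 (8.15 to 9.22). It differed by -0.76 from the B16F10 mean of 8.57. Sdhaf1, with a like role, differed by -0.22. Sdhaf4, which binds the flavoprotein during assembly, differed by -0.38, but its second probe set, at a lower level, gave 0.02. Sdhaf2, which helps to attach the flavin to SDHA, was the 1 gene of the 59 above all melanoma arrays. Its level was 9.35 in MDEC, against 8.64, 8.69, 8.66 and 8.83 in clones A2 to A5, 8.94 in clone A1 and 8.95 in parental cells (0.52).

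**Figure D2:**
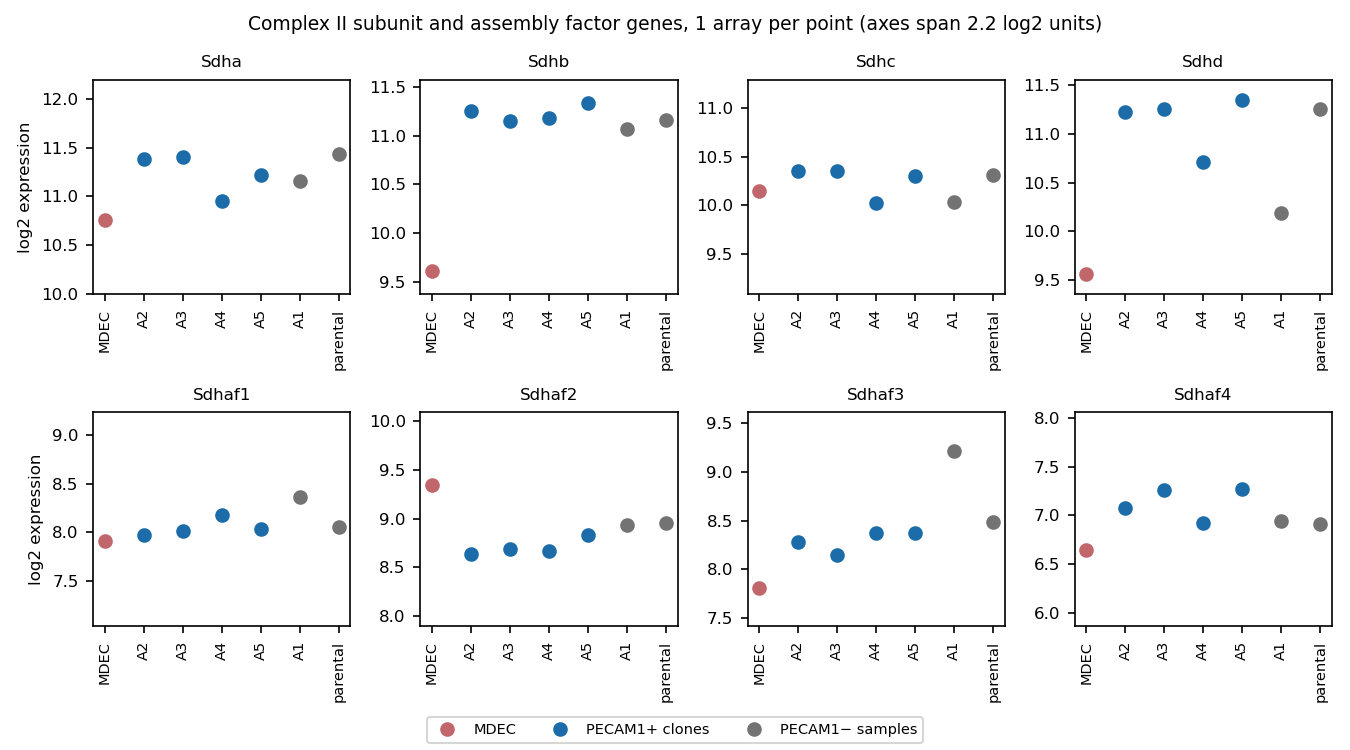
Levels of the 8 complex II genes (vertical axis, log2 expression) in MDEC, the PECAM1+ clones A2 to A5, clone A1 and parental cells, 1 point per array, with every axis spanning the same range. Sdhb and Sdhd are lowest in MDEC, Sdhaf2 is highest there, clone A1 lies between MDEC and the other B16F10 arrays for Sdhd, and clone A1 is highest for Sdhaf3.

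All 8 complex III genes lay below every B16F10 array in MDEC, with differences from -1.49 to -0.36 and a median of -0.69. Uqcr10, a small subunit next to cytochrome c1, was at 8.39 in MDEC, against 9.79, 9.91, 9.88 and 10.12 in clones A2 to A5, 9.79 in clone A1 and 9.88 in parental cells, and was 2.82-fold lower. Uqcr11, another small subunit, missed the 2-fold rule narrowly. It was at 8.90 in MDEC and had a median of 9.99 in B16F10 (9.56 to 10.27), with a difference of -0.999 from the B16F10 mean. Uqcrfs1, the Rieske iron-sulfur protein, was at 8.06 in MDEC and had a median of 8.85 in B16F10 (8.43 to 9.12), a difference of -0.76. Uqcrh, the acidic hinge protein that aids the docking of cytochrome c, was at 10.29 in MDEC and had a median of 11.03 in B16F10 (10.99 to 11.46), a difference of -0.79. The core proteins Uqcrc1 and Uqcrc2 differed by -0.52 and -0.62, and the small subunit Uqcrq by -0.59. Uqcrb differed least, with 11.13 in MDEC and 11.48 to 11.53 in B16F10, and its other 2 probe sets gave differences of -0.33 each. The B16F10 arrays gave almost the same Uqcrb level, so even that small difference lay well outside their spread.

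Other nuclear genes of the same organelle lay lower in MDEC too. Among 20 measured complex IV genes 15 lay below the B16F10 mean (median -0.39), and among 17 of complex V, the ATP synthase, 16 did (median -0.60), where 49.6% of all genes did. That share was 57.1% for genes with a mean level of at least 6 and 62.2% for those with at least 9. In each of these lists 1 gene was 2-fold lower, where 6.86% of all genes were. For complex IV, MDEC lay below all 6 B16F10 arrays in 13 genes (26.3% of all genes) and above all 6 in 3 (26.5% of all genes). The highest complex IV difference was 0.82. Atp5o, a stalk subunit of the ATP synthase, was at 9.14 in MDEC and had a median of 10.78 in B16F10 (10.26 to 11.08). Of 15 Krebs cycle genes 14 lay below the B16F10 mean (median -0.49), and 5 were 2-fold lower, against the same 6.86% of all genes. Idh3a, a subunit of the NAD-dependent isocitrate dehydrogenase, was at 8.88 in MDEC and had a median of 11.24 in B16F10 (10.09 to 11.52). Its difference from the B16F10 mean (-2.07) was larger than that of any of the 59 genes. Complex I assembly genes outside the Nduf names had a median of -0.57 over 9 genes, with Ecsit at -1.64. Complex III genes outside the Uqcr names had a median of -0.80 over 7 genes, with the assembly factor Uqcc1 at -1.41 and Cyc1, the cytochrome c1 gene, at -0.87. Medians were -0.58 over 10 coenzyme Q synthesis genes, -0.42 over 25 genes of the mitochondrial ribosome, -0.36 over 14 import and chaperone genes and -0.29 over 12 genes of iron-sulfur cluster assembly. In the last list 8 of the 12 genes lay below the B16F10 mean, and Nfu1, which delivers iron-sulfur clusters to respiratory complexes, differed by -1.59.

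Not every list lay lower in MDEC. Of 10 regulators of respiration that respond to hypoxia or act on its sensing, 5 lay below and 5 above the B16F10 mean (median -0.03). Egln3, a prolyl hydroxylase that marks hypoxia-inducible factors for degradation, was at 10.16 in MDEC and had a median of 6.44 in B16F10 (5.25 to 6.62). Higd1a, a hypoxia-induced mitochondrial protein, ran the other way by -1.06. Of 10 electron carriers and other quinone reducers 8 lay below the B16F10 mean and 2 above (median -0.45), so most of this list lay lower. Its exception Sqor, which feeds electrons from sulfide into ubiquinone, was at 9.59 in MDEC and had a median of 4.80 in B16F10 (4.48 to 4.81). Prodh, which feeds in electrons from proline, ran the other way with 7.07 in MDEC and a median of 9.75 in B16F10 (8.25 to 10.22). The 2 mitochondrially encoded genes with a probe set of their own, of 26 listed, differed by 0.01 (ND3, of complex I) and -0.01 (COX2, of complex IV). Both lay high on the scale, at 11.80 to 12.79 over all arrays. Their MDEC values, 11.96 and 12.65, were identical to the lower value in clone A3 and the higher in clone A2. The small differences therefore say little about mitochondrially encoded genes. Of 14 regulators of mitochondrial biogenesis 10 lay below the B16F10 mean (median -0.29). Ppargc1a, the coactivator PGC-1α, was at 9.10 in MDEC and had a median of 10.36 in B16F10 (9.65 to 11.06). Gabpb1, a subunit of the nuclear respiratory factor GABP, was at 9.88 in MDEC and had a median of 8.77 in B16F10 (8.49 to 8.95).

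The promoters of the genes are shown because nuclear respiratory genes are known to share sites for NRF1, for ETS factors such as GABPA, and for YY1. RefSeq promoter sequences on GRCm38.p6, from 250 bases before to 50 after the transcription start, were matched for 50 of the 59 genes. The full NRF1 motif, which is GC followed by the core GCATGCGC, stood on either strand in 4 of the 50 promoters (8.0%) and in 0.977% of all 27025 promoters. The core GCATGCGC, which lies within the full motif, stood in 8 (16%), against 2.8% of all promoters. The following windows hold position -120 to -1 before the start, with the full motif in capitals for Ndufa11 (chr17:56717642-56717761, plus strand) and Ndufaf4 (chr4:24897963-24898082, plus strand) and the core in capitals for Ndufa6 (chr15:82354292-82354411, minus strand), Ndufa8 (chr2:36049339-36049458, minus strand) and Sdhb (chr4:140961151-140961270, plus strand).
Ndufa11: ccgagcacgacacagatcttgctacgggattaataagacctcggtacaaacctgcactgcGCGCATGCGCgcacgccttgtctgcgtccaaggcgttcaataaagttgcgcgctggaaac
Ndufaf4: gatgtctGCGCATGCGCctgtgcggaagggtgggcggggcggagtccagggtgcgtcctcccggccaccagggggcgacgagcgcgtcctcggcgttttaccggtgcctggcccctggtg
Ndufa6: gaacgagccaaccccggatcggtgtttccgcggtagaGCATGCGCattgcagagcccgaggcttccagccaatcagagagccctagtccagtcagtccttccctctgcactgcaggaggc
Ndufa8: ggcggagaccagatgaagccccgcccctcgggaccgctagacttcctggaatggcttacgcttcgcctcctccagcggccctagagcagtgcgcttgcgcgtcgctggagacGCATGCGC
Sdhb: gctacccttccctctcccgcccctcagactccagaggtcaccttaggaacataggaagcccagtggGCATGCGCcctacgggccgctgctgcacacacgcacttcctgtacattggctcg

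Among these genes are both Sdhb, 2.94-fold lower in MDEC, and Ndufa8, slightly above the B16F10 mean. The median MDEC difference was -0.58 for the 8 genes with the core (-1.56 to 0.12) and -0.58 for the other 42 with a promoter (-1.74 to 0.52). The YY1-like letters GATGGCGGC stood in 5 of the 50 promoters (10.0%), against 1.1% of all. Whether these letters act as YY1 sites was not tested. In 4 of the 5 promoters they lay shortly after the start, as shown in capitals below in genomic bases 21 to 50 from the start. The genes are Ndufa9 (chr6:126849095-126849124, minus strand), Ndufs4 (chr13:114388045-114388074, minus strand), Ndufs6 (chr13:73328433-73328462, minus strand) and Ndufs7 (chr10:80249469-80249498, plus strand).
Ndufa9: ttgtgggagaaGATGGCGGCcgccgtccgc
Ndufs4: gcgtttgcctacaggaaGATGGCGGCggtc
Ndufs6: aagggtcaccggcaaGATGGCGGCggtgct
Ndufs7: ggccaaGATGGCGGCgctggcgggtgagtg

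The ETS letters CCGGAAGT stood in 3 of the 50 promoters (6.0%), against 4.0% of all. The median MDEC difference was -0.40 for the 5 genes with the YY1-like letters and -0.59 for the other 45, and -0.79 for the 3 genes with the ETS letters and -0.58 for the other 47, which are descriptions of few genes with no test. None of the 4 motifs was found in the promoter windows of Ndufs5 (chr4:123718187-123718306, minus strand), the gene with the largest MDEC difference, or of Ndufv1 (chr19:4012756-4012875, minus strand), the gene with the largest difference between PECAM1+ and PECAM1− samples. Their positions -120 to -1 are shown with no capitals for comparison.
Ndufs5: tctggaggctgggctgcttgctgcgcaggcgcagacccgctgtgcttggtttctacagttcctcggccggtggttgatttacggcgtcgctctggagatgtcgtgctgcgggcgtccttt
Ndufv1: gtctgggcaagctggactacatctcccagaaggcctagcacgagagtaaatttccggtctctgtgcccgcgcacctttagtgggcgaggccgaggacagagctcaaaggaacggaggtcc

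Within the melanoma cells, no complex I to III gene passed the test between the PECAM1+ clones and both PECAM1− samples. By limma, with Benjamini-Hochberg adjustment over all genes, 0 of the 59 had an adjusted p under 0.05, and 0.01% of all genes did. At an unadjusted p under 0.05 there were 7 of the 59, against 9.18% of all genes, so neither count stood out. In the PECAM1+ clones 45 genes lay higher and 14 lower than in the PECAM1− samples, with a median difference of 0.13 against 0.00 over all genes. That median was 0.07 without clone A1 and 0.08 without clone A5. The groups did not overlap for 12 genes higher in the PECAM1+ clones (7.73% of all genes) and for 5 lower (8.68% of all genes). Of the 12, 10 were accessory subunits of complex I, beside Ndufaf7 and Uqcr11. The 5 were Ndufv1, Ndufa5, Ndufaf1, Sdhaf2 and Sdhaf3. Both counts together were 17 of 59, where 16.4% of all genes had groups that did not overlap.

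Ndufv1, which binds NADH and holds the flavin at the entry point of complex I, differed most between PECAM1+ and PECAM1− samples. Its level was 10.17, 9.98, 9.92 and 10.03 in clones A2 to A5, against 10.69 in clone A1 and 10.69 in parental cells. All PECAM1+ clones lay below both PECAM1− samples, which lay close together, and MDEC, at 10.17, lay with the PECAM1+ clones. The difference was -0.67 ± 0.09 (SE, n = 4 and 2), and its limma adjusted p over all genes was 0.299, so it did not pass. Ndufb7 ran the other way, with 9.90, 9.78, 9.91 and 9.94 in clones A2 to A5, against 9.23 in clone A1 and 9.45 in parental cells. It did not overlap either, with a difference of 0.55 ± 0.10 (SE) and a limma adjusted p of 0.34. Other complex I genes with large differences were Ndufaf2 (0.41 ± 0.18, SE), Ndufb9 (0.40 ± 0.18, SE) and Ndufa2 (0.36 ± 0.11, SE), none of which passed. Of these, Ndufaf2 differed by 0.71 against clone A1 and 0.12 against parental cells, and Ndufb9 by 0.19 against clone A1 and 0.60 against parental cells. In complex II, Sdhaf3 differed by -0.56 ± 0.22 (SE) and Sdhaf2 by -0.24 ± 0.09 (SE). The Sdhaf3 difference was -0.92 against clone A1 and -0.19 against parental cells. In complex III the largest difference was that of Uqcr11, 0.38 ± 0.13 (SE), with 0.52 against clone A1 and 0.24 against parental cells. The core partner of Ndufv1, Ndufv2, differed by 0.27 ± 0.13 (SE), in the opposite direction, with 0.45 against clone A1 and 0.08 against parental cells.

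Ndufv1 lies on chromosome 19, and some of its neighbours also lay lower in the PECAM1+ clones than in both PECAM1− samples. Of its 30 nearest measured neighbours in gene order, 15 on each side, 10 had all PECAM1+ clones below both PECAM1− samples and 0 had them above, with a median difference of -0.21. Over the 675 measured genes of chromosome 19 the share with PECAM1+ clones below was 24.3%, against 8.68% over all genes. Among the neighbours, Chka differed by -0.84, Cdk2ap2 by -0.71 and Ppp6r3 by -0.70, while Cabp4 differed by 0.25. None of the 30 passed the limma test, and their lowest adjusted p was 0.316, for Ppp6r3. These neighbours were named after their values were seen. Ndufs8, another core subunit of complex I, is the eighth measured gene to one side of Ndufv1. Its groups overlapped, with 10.55, 10.31, 10.55 and 10.57 in clones A2 to A5, against 10.55 in clone A1 and 10.74 in parental cells (-0.15 ± 0.11, SE). Sdhaf2 and Ndufb8 also lie on chromosome 19 and differed in opposite directions, by -0.24 and 0.35. Shares of 23.6% on chromosome 4 and 21% on chromosome 11 were near that of chromosome 19.

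**Figure D3:**
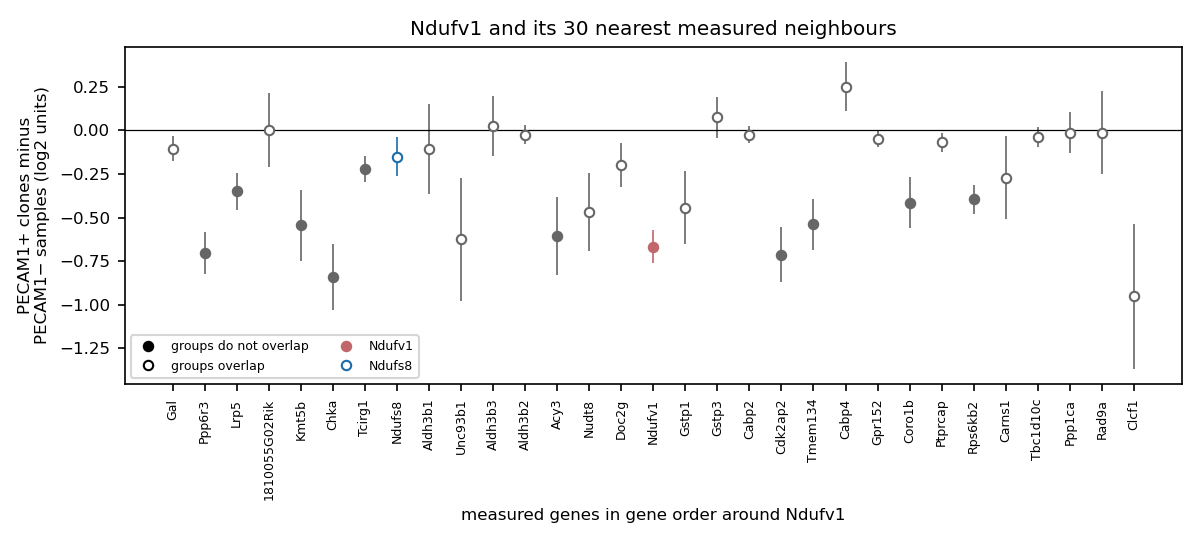
Difference of the PECAM1+ clones minus the PECAM1− samples (vertical axis, log2 units, bars are the SE) for Ndufv1 and its 30 nearest measured neighbours in gene order along chromosome 19 (horizontal axis, not to scale in bases), filled where the groups did not overlap. 10 neighbours are filled and all lie below 0, and Ndufs8 is open at -0.15.

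Against clone A1 alone, the PECAM1+ clones differed in 9 complex I to III genes. In the limma fit 5 rose and 4 fell at an adjusted p under 0.05, while 20.5% of all genes passed in that comparison (9.33% higher, 11.2% lower), so the share of these genes in that fit was not above that of all genes. The 5 that rose in the PECAM1+ clones were Ndufaf2, Ndufb7, Ndufb5, Ndufv2 and Uqcrc2, and the 4 that fell were Sdhaf3, Ndufv1, Ndufa6 and Ndufa4l2. Clone A1 was a single array, assumed to vary like the PECAM1+ clones, and it was the array with the low cell cycle genes described above, whose part in these differences was not tested. The 59 genes had a median difference of 0.15, the PECAM1+ clones being higher for 47 and lower for 12, against 0.00 over all genes. At an unadjusted p under 0.05 there were 24, against 34.2% of all genes. Clone A1 lay below all PECAM1+ clones for 31 genes (31.2% of all genes) and above all of them for 11 (28.7% of all genes), against 59.9% of all genes in either direction. Quantile normalization called 14 genes, 11 higher and 3 lower, in place of 5 and 4, and then called 21.5% of all genes. The count fell when clone A2, A3 or A5 was left out, but not without clone A4. The share of all genes called fell whichever clone was left out.

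Among the called genes, the assembly factor Ndufaf2 had the largest positive difference. Its level was 8.57, 8.49, 8.38 and 8.57 in clones A2 to A5, against 7.80 in clone A1, with 8.38 in parental cells (0.71 ± 0.10, SE, limma adjusted p 0.018). Clone A1 lay below all other melanoma arrays, parental cells included. The same held for Ndufb7, described above (0.65 ± 0.08, SE, limma adjusted p 0.0142), and for Ndufb5, another accessory subunit of the membrane arm. Ndufb5 was at 10.24, 10.19, 10.13 and 10.39 in clones A2 to A5, against 9.65 in clone A1, with 10.13 in parental cells (0.58 ± 0.11, SE, limma adjusted p 0.0371). Ndufv2 was at 10.76, 10.94, 10.94 and 10.93 in clones A2 to A5, against 10.44 in clone A1, with 10.81 in parental cells (0.45 ± 0.10, SE, limma adjusted p 0.0453). Parental cells lay within or near the range of the PECAM1+ clones for Ndufaf2, Ndufb5 and Ndufv2, so the low array was clone A1. Over the 10 other settings tried, each of these 3 genes was past the threshold in 7 and Ndufb7 in 9. Uqcrc2, a core protein of complex III, was at 11.88, 11.84, 11.79 and 11.90 in clones A2 to A5, against 11.60 in clone A1, with 11.79 in parental cells. Its small difference passed (0.25 ± 0.05, SE, limma adjusted p 0.044) but was past the threshold in only 4 of those 10 settings.

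The genes that fell in the PECAM1+ clones relative to clone A1 were led by Sdhaf3. Its level was 8.28, 8.15, 8.38 and 8.38 in clones A2 to A5, against 9.22 in clone A1, with 8.48 in parental cells. Clone A1 was the highest array for this gene (-0.92 ± 0.11, SE, limma adjusted p 0.0143). Ndufv1 fell by 0.67 on the log2 scale (limma adjusted p 0.0281), and here parental cells matched clone A1. Ndufa6, an accessory subunit of the LYR motif family, was at 8.92, 8.98, 8.97 and 9.05 in clones A2 to A5, against 9.30 in clone A1, with 8.91 in parental cells (-0.32 ± 0.07, SE, limma adjusted p 0.0496). Ndufa4l2 was at 5.63, 5.65, 5.63 and 5.61 in clones A2 to A5, against 5.94 in clone A1, with 5.53 in parental cells (-0.31 ± 0.03, SE, limma adjusted p 0.00747). Its levels were low throughout and the clones nearly equal, which makes its SE small. It was past the threshold in all 9 other settings that kept it, while Sdhaf3 was in 8 of 10, Ndufv1 in 7 and Ndufa6 in only 3.

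Sdhd had the largest positive difference of the 59 genes against clone A1, 0.95 ± 0.28 (SE), but did not pass, with a limma adjusted p of 0.0936. Clone A4, at 10.71, lay between clone A1 at 10.18 and the other PECAM1+ clones, and without clone A4 the difference was 1.09 with a limma adjusted p of 0.0187. Parental cells, at 11.25, had the level of the other PECAM1+ clones. The remaining complex II subunits differed by 0.08 (Sdha), 0.16 (Sdhb) and 0.22 (Sdhc), and none passed. In complex III, Uqcr11 differed by 0.52, Uqcrfs1 by 0.44 and Uqcrc1 by 0.26, none past the threshold. Ndufs1 (0.46 ± 0.11, SE, limma adjusted p 0.0617) and Ndufab1, the mitochondrial acyl carrier protein (0.49, limma adjusted p 0.0622), lay just outside it.

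The other mitochondrial lists stand against the 9.33% of all genes that rose and the 11.2% that fell relative to clone A1. Of 14 import and chaperone genes 6 rose in the PECAM1+ clones and none fell, with a median of 0.46. Tomm22, a receptor of the outer membrane import pore, was at 10.85, 10.77, 10.91 and 10.89 in clones A2 to A5, against 9.81 in clone A1, with 10.40 in parental cells. Of 17 complex V genes 4 rose and none fell, and of 25 mitochondrial ribosome genes 4 rose and none fell. Of 20 complex IV genes none rose and 1 fell, which was the assembly factor Surf1 (-0.71). The Krebs cycle list had 1 gene that fell and none that rose among 15. Of 10 coenzyme Q synthesis genes 2 rose and 2 fell, and of 7 complex III genes outside the Uqcr names 2 rose and 1 fell. These lists were not compared with all genes by a test.

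**Figure D4:**
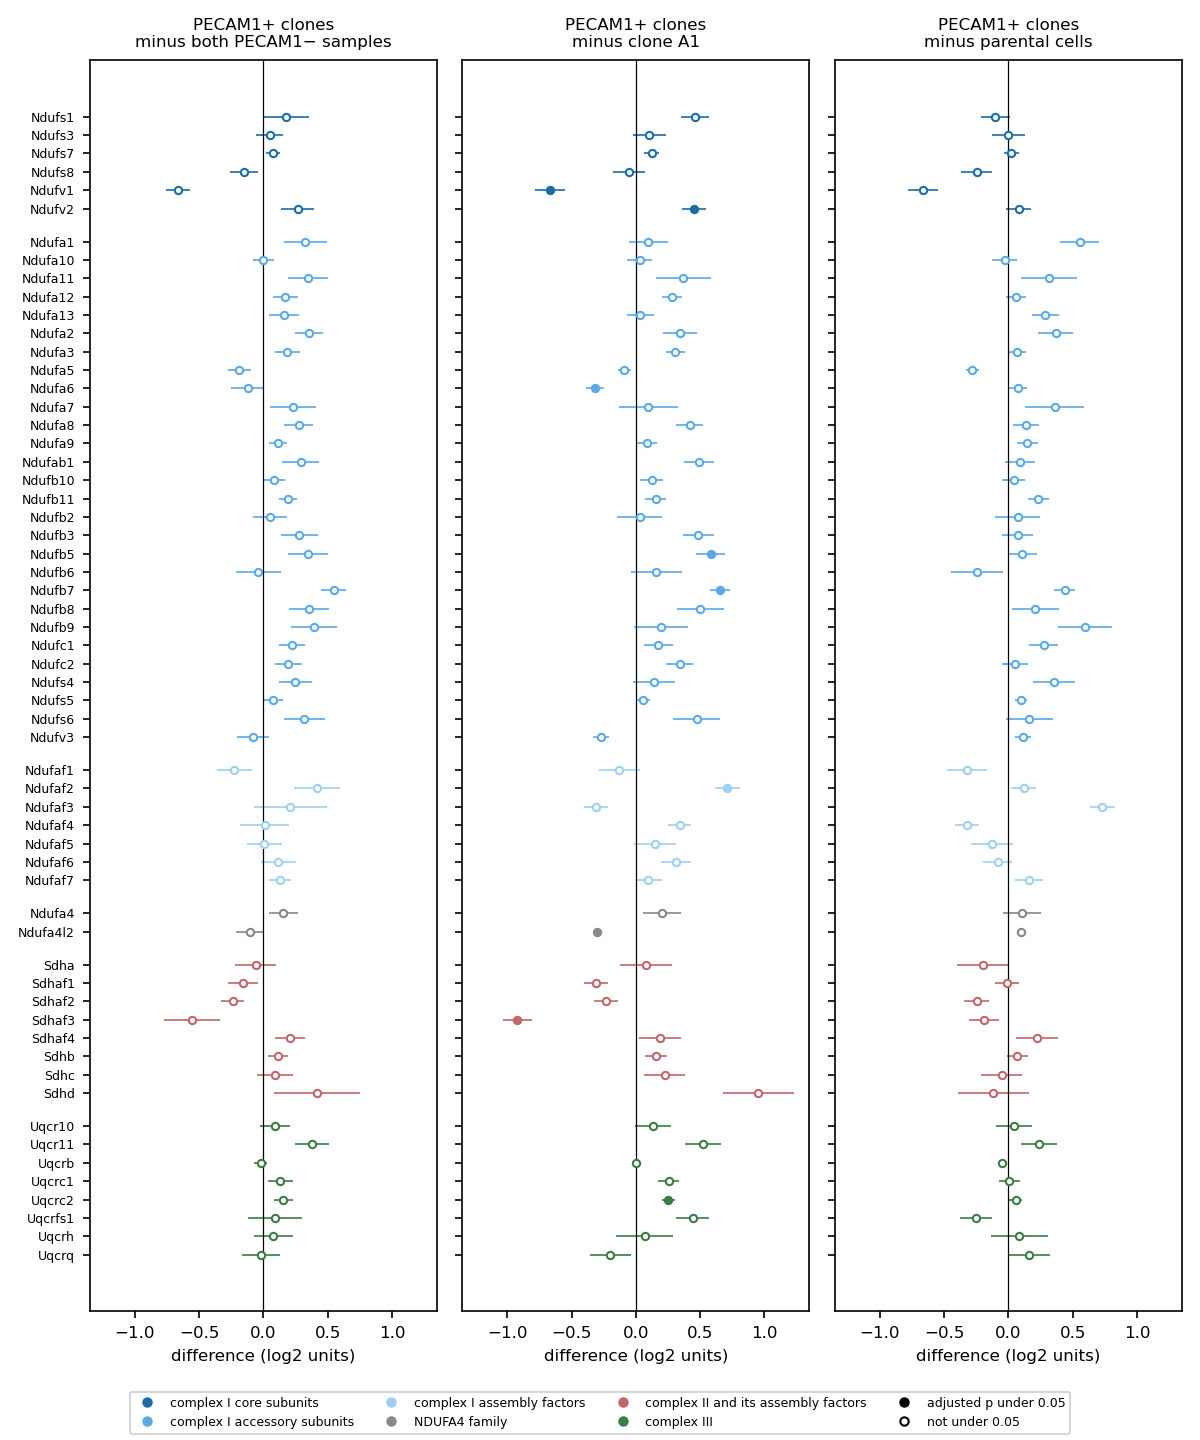
Differences of the 59 genes (horizontal axes, log2 units, bars are the SE) for the PECAM1+ clones minus both PECAM1− samples, minus clone A1 and minus parental cells, ordered by role, filled where the limma adjusted p was under 0.05. The middle panel holds all 9 filled points, and Ndufv1 lies near -0.67 in each panel.

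Against parental cells alone, 0 of the 59 genes passed the limma test, as did 0.01% of all genes. At an unadjusted p under 0.05 there were 9, against 13.5% of all genes. The median difference was 0.07, the PECAM1+ clones being higher for 40 genes and lower for 19. The parental array lay below all PECAM1+ clones for 23 genes (20.6% of all genes) and above all of them for 11 (22.1% of all genes), against 42.7% of all genes in either direction. Since the 3 comparisons share the PECAM1+ arrays, their values are given side by side only. Ndufaf3, which acts with Ndufaf4 early in complex I assembly, had the largest difference. Its level was 9.10, 8.92, 9.09 and 8.98 in clones A2 to A5, against 8.29 in parental cells, with 9.33 in clone A1. Parental cells were the lowest array and clone A1 the highest, so the difference was 0.73 ± 0.10 (SE, limma adjusted p 0.132) against parental cells and -0.31 against clone A1. Ndufaf4 ran the other way, with 8.13, 7.95, 7.95 and 8.01 in clones A2 to A5, against 8.33 in parental cells, with 7.67 in clone A1. Its difference was -0.32 ± 0.09 (SE) against parental cells and 0.34 against clone A1. Ndufb9 differed by 0.60 ± 0.21 (SE) and Ndufa1 by 0.55 ± 0.15 (SE) against parental cells, and against clone A1 they differed by 0.19 and 0.10. Ndufv1 differed by -0.66 ± 0.11 (SE, limma adjusted p 0.167), the 1 gene of these with nearly the same difference from each PECAM1− sample. Uqcrfs1 differed by -0.25 ± 0.13 (SE) against parental cells and by 0.44 against clone A1.

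The PECAM1+ clones themselves differed little in these genes, and clone A5 stood highest. The median SD over the 4 clones was 0.108 for the 59 genes and 0.0976 for all genes, and no gene was 2-fold apart between clones. Clone A5 had the highest level of the 4 for 41 of the 59 genes (69.5%), against 29.4% of all genes, and the lowest for 1. Clone A4 was lowest for 27 (45.8%), against 38.5% of all genes. The median deviation from the clone mean was 0.09 in clone A5 and -0.05 in clone A4, so the shift was small. It was seen after the data were examined and has no test, because each clone is 1 array. After the arrays were set to equal medians clone A5 was highest for 38 of the 59 genes, and after quantile normalization for 33, against 20.4% and 21.4% of all genes. The gene with the widest range was Sdhd, 0.64, set by the low value of clone A4. Clone A4 was also lowest of the 4 for Sdha, at 10.95 against 11.22 to 11.40, and for Sdhc, at 10.02 against 10.30 to 10.35. Uqcrb had the smallest SD, 0.009, and 14 of the 59 genes had an identical value in some pair of arrays, which can make a spread too small.

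**Figure D5:**
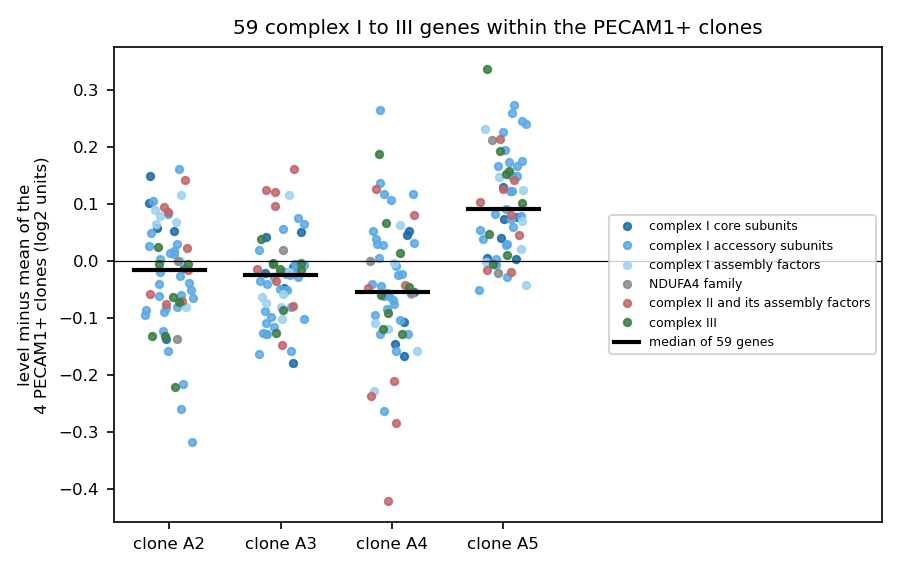
Level of each of 59 genes minus its mean over the 4 PECAM1+ clones (vertical axis, log2 units) in clones A2, A3, A4 and A5, coloured by role, with the median as a black bar. The bar of clone A5 lies at 0.09 and that of clone A4 at -0.05, and the points of all clones overlap.

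For 8 of the 59 genes several probe sets were present, and the others than the one used gave the same direction in MDEC for all but Sdhaf4. They differed in size for Ndufa11, at -0.78 with the probe set used and -0.33 with the other. Whether their probes also match processed copies of these genes elsewhere in the genome was not known.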

How the data were processed

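Biotin-labelled total RNA was measured on 1 array per sample, per the labels. The deposited table holds 1 value per probe set and array, taken to be log2 because the values span 1.39 to 13.5, and the submitters' processing notes name Partek. Background correction, normalization and genome build were not given in the sources used here, nor were detection calls, so precision is limited by the number of arrays. Nothing was centred again. The platform annotation named 1 gene for 21789 probe sets, left 12147 unnamed and gave 1621 several symbols, and all 59 genes matched a RefSeq gene table of GRCm38.p6.

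PECAM status in the labels grouped the samples. The 6 B16F10 arrays were fitted in R 4.3.3 with limma 3.58.1 (lmFit, then eBayes with trend, two-sided, Benjamini-Hochberg over 19938 genes, threshold 0.05), without covariates and without MDEC. The fit was also run on simulated data, in which every array had the spread of the PECAM1+ clones. That run cannot show how the fit behaves where the PECAM1− samples differ more from each other. Fits against clone A1 or parental cells alone left out the other PECAM1− array. The MDEC rule of size was at least 2-fold from the mean of both B16F10 group means and outside the B16F10 range.

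The members and the gene lists were chosen with earlier results of these data known. Genes were given values by rule: in each comparison and role the up to 4 largest absolute differences, all complex II and III genes, all genes past the MDEC rule, up to 3 of each other list, and markers. Ndufs3, Ndufa5, Ndufa6, Ndufa7, Ndufa8, Ndufa11, Ndufaf7 and the neighbours of Ndufv1 were added after their values were seen. Alternatives were other centring, filters, probe set rules, variance models, array weights and leaving out each array.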

Additional observations from a re-analysis of the deposited data

Results flagged for a closer look

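In 6 of the 40 complex I to III genes given values by rule, 1 PECAM1+ clone stood far from the other 3. Its gap to its nearest neighbour, as a share of the range, was above Dixon's 95% critical value for 4 samples. Chance marks about 1 in 20 such groups. Clone A5 was high for Ndufb2, at 8.25 where the others had 7.86 to 7.92, and for Uqcrh, at 11.46 where the others had 10.99 to 11.03. Clone A4 was low for Sdhc, at 10.02 where the others had 10.30 to 10.35. It was high for Uqcrb, at 11.49 where the others had 11.48, although that gap was very small in size. Clone A2 was low for Ndufv2, at 10.76 where the others had 10.93 to 10.94. Clone A3 was low for Ndufs8, at 10.31 where the others had 10.55 to 10.57.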

How the results depend on the processing

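The lower level in MDEC held under every alternative run, with 54 to 57 genes lower, against 39.1% to 57.1% of all genes. Below every B16F10 array were 44 to 49 genes, against 22.7% to 36% of all genes. The median ran from -0.61 to -0.54. Past 2-fold were 9 to 11 genes, against 13% to 18.6% of all genes in either direction, and past 4-fold 0, against 4.73%. The counts below every array and lower, and those for clone A5 (33 to 41), were added after the data were seen. The count called against both PECAM1− samples was 0 under every setting that kept both of them. Leaving out parental cells or clone A1 gave the same fits as the comparisons with clone A1 or parental cells alone, described above. The count against clone A1 was 14 after quantile normalization, 15 with the filter on dim genes, in which fewer genes are tested, 7 to 11 under the other models and probe set rules, and 3 to 9 when 1 clone was left out. The causes of these changes in count were not tested. The share of all tested genes called against clone A1 was 21.5% after quantile normalization and 34.2% with the filter on dim genes. That share was 19.5% to 20.6% under the other models and probe set rules, and 10.6% to 17.7% when 1 clone was left out. The count of 15 with the filter therefore came with a higher share of all tested genes called. The count against parental cells was 0 throughout. Median differences without 1 array ran from 0.07 to 0.15 against both PECAM1− samples, 0.10 to 0.18 against clone A1 and 0.04 to 0.09 against parental cells. Small differences changed sign. Uqcrq gave 0.0043 with array weights against both PECAM1− samples, Uqcrb gave -0.0276 with equal medians and -0.0358 after quantile normalization against clone A1, and Uqcrc1 gave -0.0111 with equal medians against parental cells. Without 1 array, differences from both PECAM1− samples ran from -0.31 to 0.10 for Ndufa4l2, -0.31 to 0.73 for Ndufaf3, -0.10 to 0.46 for Ndufs1, -0.198 to 0.0781 for Sdha, -0.0499 to 0.224 for Sdhc, -0.12 to 0.95 for Sdhd, -0.0478 to 0.0042 for Uqcrb, -0.25 to 0.44 for Uqcrfs1, -0.0358 to 0.121 for Uqcrh and -0.20 to 0.16 for Uqcrq. Against clone A1 they ran from -0.0003 to 0.0058 for Uqcrb and -0.044 to 0.113 for Uqcrh. Against parental cells they ran from -0.0525 to 0.0147 for Sdhaf1, -0.0824 to 0.0292 for Sdhc, -0.189 to 0.0226 for Sdhd, -0.0182 to 0.0903 for Uqcr10, -0.0259 to 0.0382 for Uqcrc1 and -0.0275 to 0.129 for Uqcrh. Against both PECAM1− samples, Ndufa4l2, Ndufaf3, Ndufs1, Sdhc, Sdhd, Uqcrb and Uqcrfs1 changed sign only when clone A1 or parental cells was left out. For these genes the PECAM1+ mean lay between clone A1 and parental cells. The causes of the other sign changes were not tested. Ndufa4l2 remained past the threshold against clone A1 in all 9 alternatives that kept it (limma adjusted p 0.00756 to 0.0285). Limma adjusted p over the alternatives ran from 0.00787 to 0.0531 for Ndufb7, 0.0053 to 0.0653 for Ndufaf2, 0.0163 to 0.0996 for Ndufb5, 0.0082 to 0.0946 for Ndufv1, 0.0197 to 0.126 for Ndufv2, 0.00676 to 0.0513 for Sdhaf3, 0.0187 to 0.208 for Sdhd, 0.0359 to 0.12 for Ndufa6, whose alternatives were added after the data were seen, and 0.0356 to 0.111 for Uqcrc2. No paired analysis was possible because the labels give the groups no shared replicate numbers.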
